A study of Mus musculus with 6 samples.

Results

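The cytosolic ribosomal protein genes were the 84 genes, of 19285 with values in 6 libraries, whose deposited symbol is that of a protein of the large subunit (Rpl and Rplp names, 53 genes) or the small subunit (Rps names and Rpsa, 31 genes), without the Rps6k kinases. Membership was set by symbol, not by level, so near-copies such as Rpl10l were included, and Rps3a1 and Fau, which also encode ribosomal proteins, were not. The libraries came from primary mouse testicular peritubular myoid (PTM) cells of strain C57BL/6J, grown in DMEM/F12 with fetal bovine serum. The 3 untreated libraries received no ET1, and the 3 ET-1 libraries came from cells given 50 nM endothelin-1, a peptide that contracts smooth muscle, for 5 min. No age, transgene or pooling of animals is given in the labels. Nor do the labels give the origin of the libraries within a group (1 culture or several), and the p-values below then reflect library-to-library spread that may be technical only.

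Each ribosome holds 1 copy of most of these proteins, and their mRNAs are among the most abundant of a growing cell. In mammals most of these mRNAs begin with a terminal oligopyrimidine tract (TOP), a C followed by a run of C and T (U in the RNA), through which the kinase mTOR and the RNA-binding protein Larp1 set how much of the mRNA is translated. The mRNAs themselves are long-lived. The comparison asks whether their steady level differed between untreated cells and cells given a short exposure to ET-1.

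Levels are given as FPKM, that is, fragments divided by transcript length and library depth, rounded by the authors to 2 decimals. From the steps between low values, each library held an estimated 17600000 to 18300000 fragments. The highest contractile markers of the labelled cell type were Acta2, the smooth muscle actin, at 1474 to 2211 FPKM and Tagln, an actin-binding protein, at 1343 to 2203 FPKM. Other contractile markers were far lower, with Cnn1 at 60 to 164, Des at 42 to 92 and Myh11 at 22 to 51 FPKM. By sign of the log2 change, 9 of the 14 tested myoid markers were higher after ET-1 and 5, Des and Myh11 among them, were lower. Markers of other testicular cell types were also measured. Summed over 15 macrophage markers the level was 143.3 to 238.3 FPKM in the untreated and 354.6 to 807.8 FPKM in the ET-1 libraries. Over 10 endothelial markers it was 61.3 to 97.4 and 27.2 to 47.8 FPKM, over 14 Sertoli markers 1132 to 2759 and 3210 to 7080 FPKM, and over 8 Leydig markers 2393 to 5016 and 882.9 to 2479 FPKM. Over 12 germ cell markers it was 9.72 to 15.4 and 7.92 to 18.5 FPKM. Most of the Sertoli sum was Clu, at 839.7 to 1879 FPKM untreated and 2579 to 5624 FPKM after ET-1. Most of the Leydig sum was Insl3, at 2040 to 4532 FPKM untreated and 614.0 to 2096 FPKM after ET-1. By sign of the log2 change, 11 tested Sertoli markers were higher and 2 lower after ET-1. Of the tested Leydig markers, 2 were higher and 3 lower. In limma at an adjusted p under 0.05, 1 of 14 tested macrophage markers and 3 of 13 Sertoli markers rose, and 4 of 6 endothelial markers fell. No Leydig, germ cell or myoid marker passed, and the share over all tested genes was 3.46%. At an unadjusted limma p under 0.05 there were 11 of 14 macrophage markers (10 higher, 1 lower). There were also 5 of 6 endothelial markers, all lower, and 4 of 13 Sertoli markers, all higher. For Leydig, germ cell and myoid markers it was 3 of 5, 0 of 3 and 5 of 14, against 24.1% of all tested genes. With the replicate number as a block the calls were 7 higher and 1 lower for macrophage, 6 higher for Sertoli and 5 lower for endothelial markers. They were 1 higher and 2 lower for Leydig and 1 higher for myoid markers, with none for germ cells. The share over all tested genes in the blocked fit was 9.45%. Each of these markers was above 0 in at least 1 library, and their part in the results below was not tested. In such bulk RNA fewer cells of a type and less RNA per cell cannot be told apart.

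The TOP tract is shown for members with and without it at the annotated start, because it is the sequence feature by which these genes are known. Of the 84 members, 64 had at least 1 start site in the RefSeq promoter table (build GRCm38.p6), 76 start sites in all. The first base was a C with the next 4 bases all C or T at 14 of the 76 sites (18.4%), against 2.51% of the 32851 start sites of all genes. In the 30 bases from 10 before the start to base 20, a run of C and T that begins with C and is at least 8 bases long was present at 25 of 76 sites (32.9%), against 8.68% of all sites. Only the strand of the gene was read. A RefSeq start may lie some bases away from the start used in these cells, so a run beside the start is a description of the sequence. Each sequence reads from upstream to downstream on the gene's strand, and capitals mark the longest run of C and T beginning with C. The first 5 have a C at the start followed by at least 4 pyrimidines, and the other 5 belong to members at the ends of the range of change, to a paralog or to the gene printed for contrast.
Rps6, chr4:86857348-86857377, minus strand: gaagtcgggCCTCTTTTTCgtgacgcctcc
Rplp2, chr7:141447641-141447670, plus strand: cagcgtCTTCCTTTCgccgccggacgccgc
Rps27, chr3:90213629-90213658, minus strand: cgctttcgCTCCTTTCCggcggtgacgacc
Rpl15, chr14:18270967-18270996, minus strand: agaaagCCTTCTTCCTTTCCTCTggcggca
Rps15a, chr7:118116128-118116157, minus strand: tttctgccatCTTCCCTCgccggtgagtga
Rps12, chr10:23787190-23787219, minus strand: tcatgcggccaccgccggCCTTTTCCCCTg
Rps23, chr13:90923112-90923141, plus strand: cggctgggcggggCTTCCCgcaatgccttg
Rpl34, chr3:130730318-130730347, minus strand: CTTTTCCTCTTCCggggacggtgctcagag
Rpl22l1, chr3:28805498-28805527, plus strand: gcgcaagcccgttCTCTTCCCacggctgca
Rpl7l1, chr17:46782637-46782666, minus strand: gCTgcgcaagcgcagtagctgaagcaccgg
The run of Rpl34 in this window belongs to 1 of its 2 start sites in the table. Rpl7l1, a relative of Rpl7, had no such run longer than 2 bases in the window.

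The ribosomal protein genes were among the most abundant transcripts of every library. They made up 42 of the 100 genes with the highest mean FPKM and 69 of the highest 200. Of the 84 members, 80 had at least 1 FPKM in at least 3 libraries and were tested. Their median of mean FPKM was 881.3, against 11.5 for all 11664 tested genes. The members' summed FPKM was 14.6%, 13.5% and 14.8% of the sum over all genes in untreated libraries 1, 2 and 3, and 17.1%, 13.5% and 14.6% in ET-1 libraries 1, 2 and 3. The groups overlap in this share, with ET-1 library 1 highest and ET-1 library 2 about level with untreated library 2.

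Rplp1, an acidic protein of the stalk that recruits elongation factors, had the highest level per length of all members. It was at 2836, 2670 and 2989 FPKM untreated and at 4233, 3098 and 3094 FPKM after ET-1. Rps2, a protein near the mRNA entry of the small subunit, came next in the order of mean level. It was at 2572, 2101 and 2503 FPKM untreated and at 3042, 2153 and 2519 FPKM after ET-1. Rpl41, a very short basic peptide of the large subunit, had a mean over all libraries of 1943 FPKM, followed by Rpl23a at 1747 and Rpl18 at 1719 FPKM. Rpl41, Rpl23a and Rpl18 differ by less than the spread between their own libraries, which ran from 1754 to 2364 FPKM for Rpl41 and from 1502 to 2119 FPKM for Rpl18. The remaining core members, that is those that are not paralogs, lay mostly close together: the middle range of the 76 tested core members was 719.9 to 1337 FPKM.

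**Figure D1:**
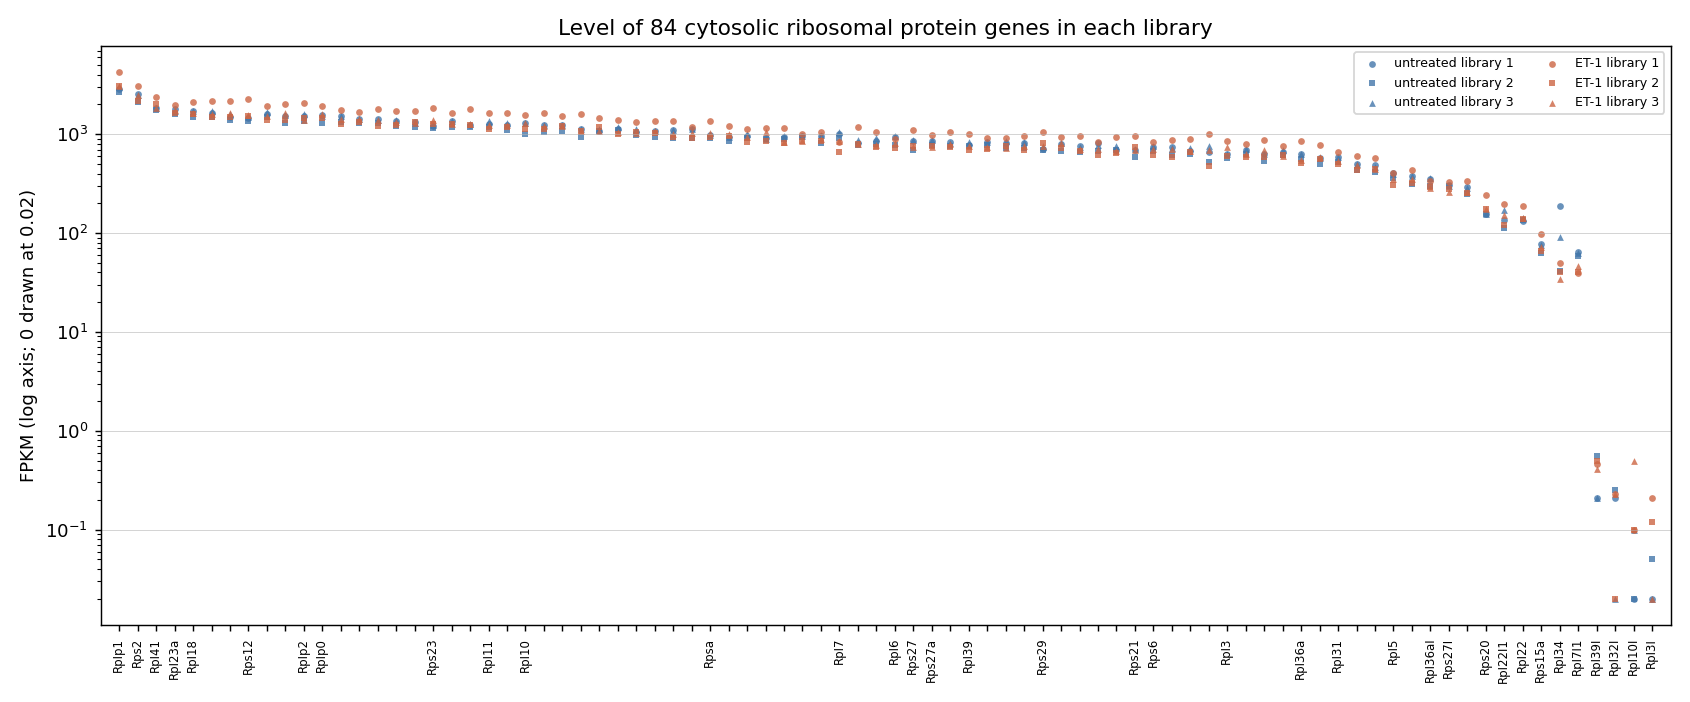
FPKM (log axis) of all 84 members in each of 6 libraries, ordered by mean level, with blue for untreated and orange for ET-1 libraries; names are given for the members described in the text. 77 members have a mean of at least 100 FPKM, 4 lie under 1 FPKM, and ET-1 library 1 is the highest point of most members.

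The lowest core levels belonged to genes with a long deposited transcript or with a copy elsewhere in the table. FPKM divides by length, and across the 76 core members the mean level and the length of the longest transcript had a Spearman correlation of -0.45, given as a description because the members share libraries and the length enters the unit. Rps15a, a small-subunit protein, had a mean of 75.7 FPKM with a longest transcript of 5125 bases, against a median length of 714 bases over the core members. Rps20, also of the small subunit, was at 176.6 FPKM with 3446 bases, and Rpl22 at 146.1 FPKM with 2223 bases. Multiplied by length in kilobases, the mean level of Rps15a became 387.7 and that of Rps20 608.5, against 308.6 for Rps27 and 872.4 for Rpl41. The sources used here do not give the transcript length behind each FPKM, so the order of these members by FPKM depends on the isoforms deposited.

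**Figure D2:**
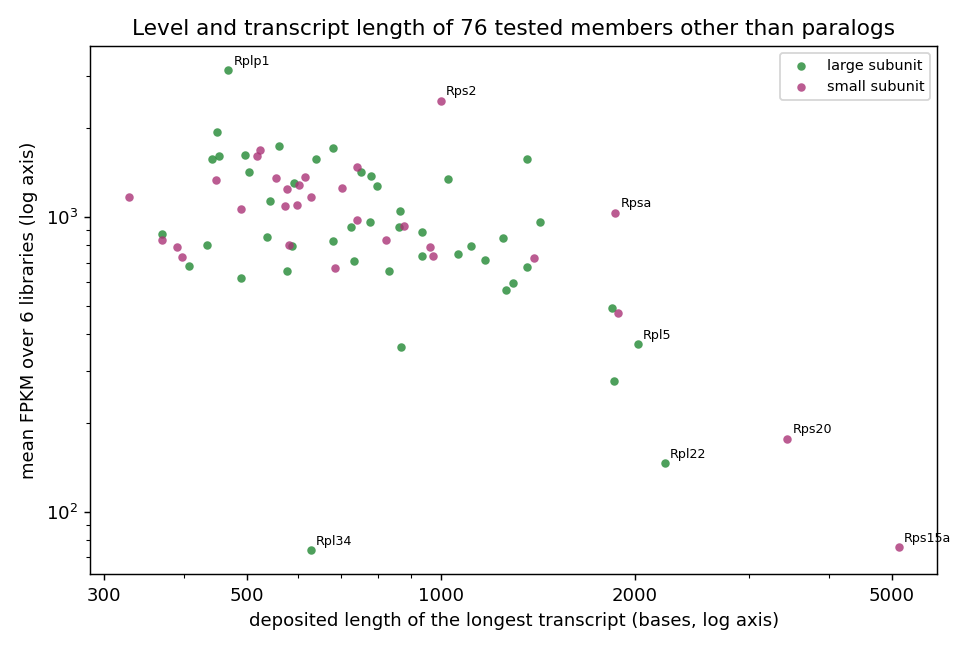
Mean FPKM over 6 libraries against the deposited length of the longest transcript for 76 core members (both axes log), by subunit. The longest transcripts (Rps15a, 5125 bases, and Rps20, 3446 bases) carry low levels, and Rpl34 is low at 628 bases.

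For 7 members the deposited coordinates (mm10) lay off the RefSeq gene, among them Rpl11, Rpl12, Rpl28, Rpl38, Rps12 and Rps27. In 5 of them the deposited span had exactly the length of the transcript, as an intronless copy has. Rps12 was placed on chromosome 7 from 30484660 to 30485178, where RefSeq has the pseudogene Rps12-ps4, while its gene is on chromosome 10 from 23785183 to 23787383. Rpl11 was placed on chromosome 3 from 146838775 to 146839365, over the pseudogene Gm10288, while its gene is on chromosome 4 from 136049354 to 136053393. Rps27 was placed on chromosome 9 from 114982371 to 114982739, within the row of its retrocopy Rps27rt. Rpl28 was placed over Rpl28-ps1. Rpl38 was given a span of chromosome 6 from 52346671 to 114672331. The levels of these 7 members lay among those of the other members, with Rpl11 at 1272 ± 92 FPKM untreated (mean ± SD, n = 3) and Rps27 at 807.5 ± 95.1 FPKM (n = 3). Reads of a ribosomal protein mRNA and of its processed copies can be hard to tell apart, so every member with such a copy is uncertain to the extent that reads were divided.

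As a group the members did not separate treated from untreated cells. Of 80 tested members, 61 had a positive and 19 a negative log2 change after ET-1, with a median of 0.091, against a median of -0.027 over all 11664 tested genes. The median turned negative without ET-1 library 1 (-0.057) and with quantile normalization (-0.014). In limma with Benjamini-Hochberg adjustment at 0.05, 1 of the 80 members passed, and it was lower after ET-1 (1.25%). Over all tested genes 404 passed, 3.46% of those tested, 1.89% lower and 1.57% higher. With the replicate number as a block, 1 member passed again, the same gene, while the share over all tested genes was 9.45%, with 5.19% lower and 4.26% higher. At an unadjusted limma p under 0.05 there were 2 members (2.50%) and 2806 genes in all (24.1%). The groups did not overlap in 9 members (11.2%, against 30.9% of all tested genes). Of these, 7 had higher ET-1 values (8.75%, against 13.2% of all tested genes) and 2 had lower ones (2.50%, against 17.6%). The members higher in all ET-1 libraries included Rplp1, Rpl41, Rps12, Rps20, Rps23 and Rps29, and those lower were Rpl7 and Rpl7l1.

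The members varied together from library to library, and ET-1 library 1 stood apart. Of the 80 tested members, 75 had their highest level in ET-1 library 1, whereas 45 were lowest in untreated library 2 and another 26 were lowest in ET-1 library 2. Relative to each gene's mean log2 level over the 6 libraries, the median member was at 0.310 in ET-1 library 1, at -0.134 in ET-1 library 2 and at -0.049 in ET-1 library 3. In untreated libraries 1, 2 and 3 the median member was at 0.0055, -0.160 and 0.034. The groups thus overlap, with the highest value in ET-1 library 1 and the lowest in untreated library 2. Transcript length moved with the high level in ET-1 library 1, where the median of 771 other tested genes shorter than 1000 bases was 0.166 and that of 5434 other genes of at least 3000 bases was -0.121. It did not in ET-1 library 2, where the median member was low and the other short genes were at 0.047, above the long genes at -0.024. In the remaining 4 libraries the short genes lay between -0.109 and 0.0093 and the long genes between 0.0015 and 0.062, with the short below the long in each. The short and long genes were at -0.075 and 0.062 in untreated library 2, and at -0.109 and 0.040 in ET-1 library 3. With the length trend of each library removed before the fit, the members' median log2 change was 0.012, with 44 positive and 36 negative. ET-1 library 1 also had the highest summed level of macrophage markers, 807.8 FPKM against 422.8 and 354.6 FPKM in ET-1 libraries 2 and 3. Untreated library 2 and ET-1 library 2, where 71 of the 80 members were lowest, had the highest Sertoli sums of their groups (2759 and 7080 FPKM) and the lowest Leydig sums (2393 and 882.9 FPKM). Clu made up most of these Sertoli sums and Insl3 most of these Leydig sums. What part length or RNA of these cell types had in the members' level was not tested.

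**Figure D3:**
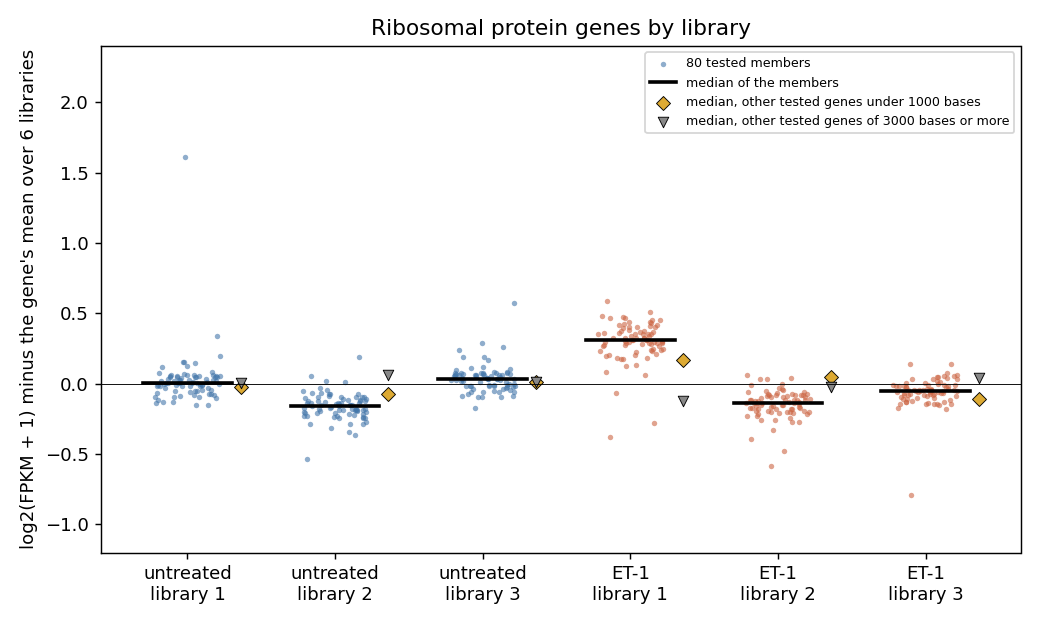
Level of the 80 tested members in each library as log2(FPKM + 1) minus the gene's mean over 6 libraries; points are genes, bars the members' median, diamonds and triangles the medians of other short and long genes. The members' median is 0.310 in ET-1 library 1 and between -0.160 and 0.034 in the other libraries.

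The balance between the subunits was steadier than the level. The summed FPKM of large-subunit members divided by that of small-subunit members was 1.51, 1.51 and 1.52 in untreated libraries 1, 2 and 3, and 1.45, 1.46 and 1.49 in ET-1 libraries 1, 2 and 3. The ratio was lower in all ET-1 libraries, with no overlap. The median log2 change was 0.062 over the 49 tested large-subunit members and 0.107 over the 31 small-subunit members. The order of members also varied little between libraries, with Pearson correlations of log2(FPKM + 1) across the 80 members of 0.977 to 0.994 between libraries of a group, which describe levels and not changes.

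Rpl7l1 was the member that passed. It is a relative of Rpl7, the protein of the large subunit, and its yeast counterpart Rlp7 acts in the assembly of that subunit in the nucleolus and is not part of the finished ribosome. Rpl7l1 (chromosome 17, 46773907 to 46782656, mm10) was at 64.8, 58.5 and 62.7 FPKM untreated and at 39.1, 40.5 and 46.9 FPKM after ET-1. All untreated libraries were above all ET-1 libraries. The mean fell from 62.0 ± 3.3 to 42.1 ± 4.2 FPKM (SD, n = 3 each), a log2 change of -0.55 ± 0.10 (SE; limma adjusted p = 0.0436). The call was lost in limma when any library other than ET-1 library 3 was left out (adjusted p from 0.0608 to 0.215), with quantile normalization (0.0529), without a filter on low values (0.0780), with untreated libraries 1 and 3 averaged (0.186) and with libraries scaled to the median member (0.209). Under those settings the log2 change lay between -0.59 and -0.485. Untreated libraries 1 and 3 were the most alike pair within a group. Over all tested genes their log2(FPKM + 1) had a Pearson correlation of 0.996, against 0.973 to 0.983 for the other within-group pairs. If these libraries are not independent, the main fit counts too many untreated replicates, and the labels do not settle this.

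Rpl7, whose protein lies beside the small ribosomal RNA of the large subunit, had the same order of groups but did not pass. Rpl7 (chromosome 1, 16101295 to 16104433) was at 1006, 909.6 and 1050 FPKM untreated and at 837.3, 666.6 and 851.4 FPKM after ET-1. Every ET-1 value was under every untreated value, in ET-1 library 1 too, where most members were highest. The log2 change was -0.34 ± 0.14 (SE; limma adjusted p = 0.199, n = 3 each), and -0.224 without ET-1 library 2.

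Rpl34, a large-subunit protein, had the most negative log2 change of all tested members, and a copy of it was deposited beside it. Rpl34 (chromosome 3, 130726827 to 130730398) was at 187.2, 41.5 and 90.6 FPKM in untreated libraries 1, 2 and 3 and at 49.7, 40.1 and 34.6 FPKM in ET-1 libraries 1, 2 and 3. The groups overlap, since untreated library 2 lies within the ET-1 range, and the log2 change of -1.10 ± 0.49 (SE) did not pass limma (adjusted p = 0.228, n = 3 each). It was -0.569 without untreated library 1 and -1.64 without untreated library 2 (limma adjusted p = 0.438 and 0.0583). Its processed copy Rpl34-ps1 (chromosome 6, 71124589 to 71125051) was deposited as a row of its own at 631.6, 735.7 and 790.5 FPKM untreated and at 962.9, 757.4 and 781.7 FPKM after ET-1. The copy thus held 77.1%, 94.7% and 89.7% of the pair's FPKM untreated and 95.1%, 95.0% and 95.8% after ET-1. With both rows summed by length, a setting chosen after seeing the data, the log2 change was 0.037 ± 0.134 (SE, limma adjusted p = 0.893, n = 3 each). Whether reads of Rpl34 were assigned to the copy was not tested. Rpl31 and its copy Rpl31-ps12 were likewise both deposited, the copy holding 21.6% to 27.1% of the pair untreated and 28.3% to 32.3% after ET-1. Summed by length, Rpl31 had a log2 change of 0.047 ± 0.140 (SE).

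**Figure D4:**
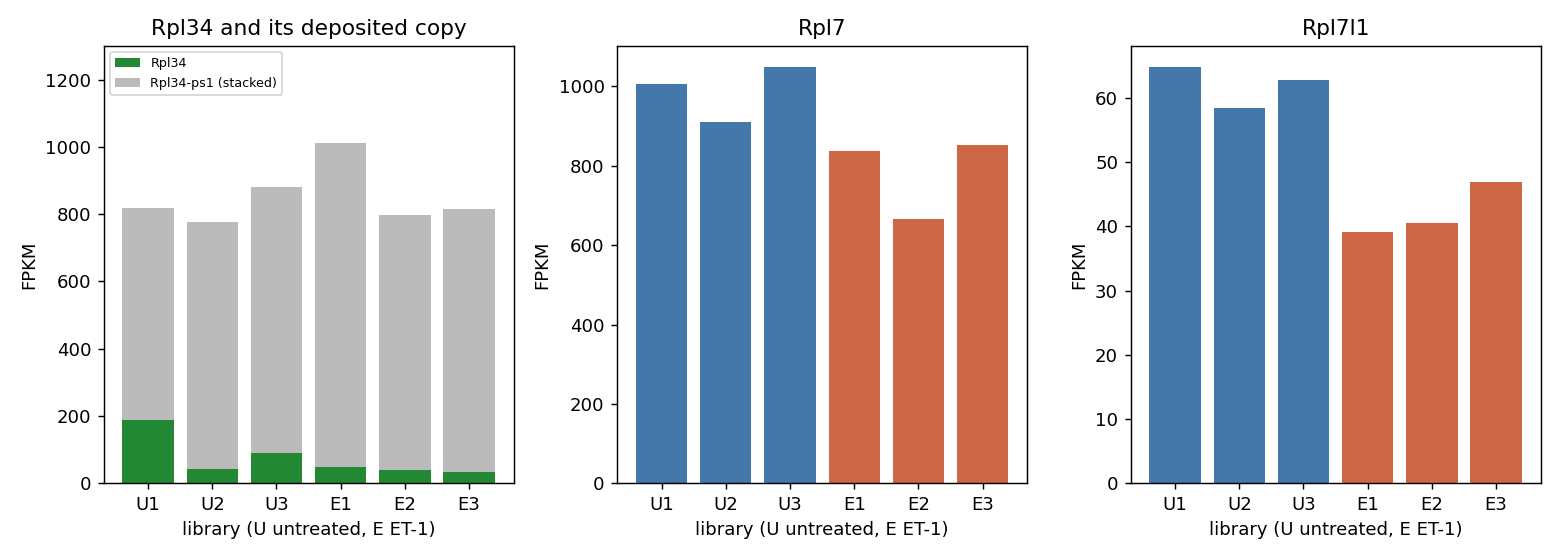
FPKM per library (linear axes from 0) of Rpl34 stacked with its copy Rpl34-ps1, of Rpl7 and of Rpl7l1; U, untreated; E, ET-1. The green part of Rpl34 varies from 34.6 to 187.2 FPKM while the pair sums to 777.2 to 1013 FPKM, and Rpl7 and Rpl7l1 are lower in all ET-1 libraries.

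Rps20 had the most positive log2 change of all tested members. It sits in the head of the small subunit. Rps20 (chromosome 4, 3831584 to 3835655) was at 156.5, 156.7 and 154.5 FPKM untreated, a spread of under 3 FPKM, and at 241.9, 174.5 and 175.3 FPKM after ET-1. All ET-1 values were above the untreated ones, and ET-1 library 1 was well above the other two. The log2 change was 0.32 ± 0.14 (SE; limma adjusted p = 0.228, n = 3 each), and 0.165 without ET-1 library 1.

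Other members at the high end of the range had the same shape. Rps23, which lies at the decoding site, was at 1222, 1157 and 1253 FPKM untreated and at 1835, 1280 and 1389 FPKM after ET-1. Rps12 was at 1459, 1350 and 1486 FPKM untreated and at 2257, 1523 and 1561 FPKM after ET-1, with the deposited locus on the pseudogene named above. Rps29 was at 706.7, 695.9 and 733.7 FPKM untreated and at 1056, 805.9 and 758.7 FPKM after ET-1. In each of these 3 genes the groups do not overlap and ET-1 library 1 stands well above ET-1 libraries 2 and 3. Rps21 was at 663.7 ± 64.0 FPKM untreated and 798.9 ± 140.2 FPKM after ET-1 (SD, n = 3 each), with overlapping groups. None passed limma, the adjusted p being 0.317 for Rps23, 0.372 for Rps12, 0.30 for Rps29 and 0.363 for Rps21. Their log2 changes ran from 0.26 for Rps21 to 0.29 for Rps23. Without ET-1 library 1 they were 0.119 for Rps21, 0.14 for Rps23, 0.108 for Rps12 and 0.135 for Rps29. With quantile normalization they were 0.16 for Rps21, 0.20 for Rps23, 0.163 for Rps12 and 0.207 for Rps29, and with the length trend removed 0.125, 0.195, 0.186 and 0.145.

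**Figure D5:**
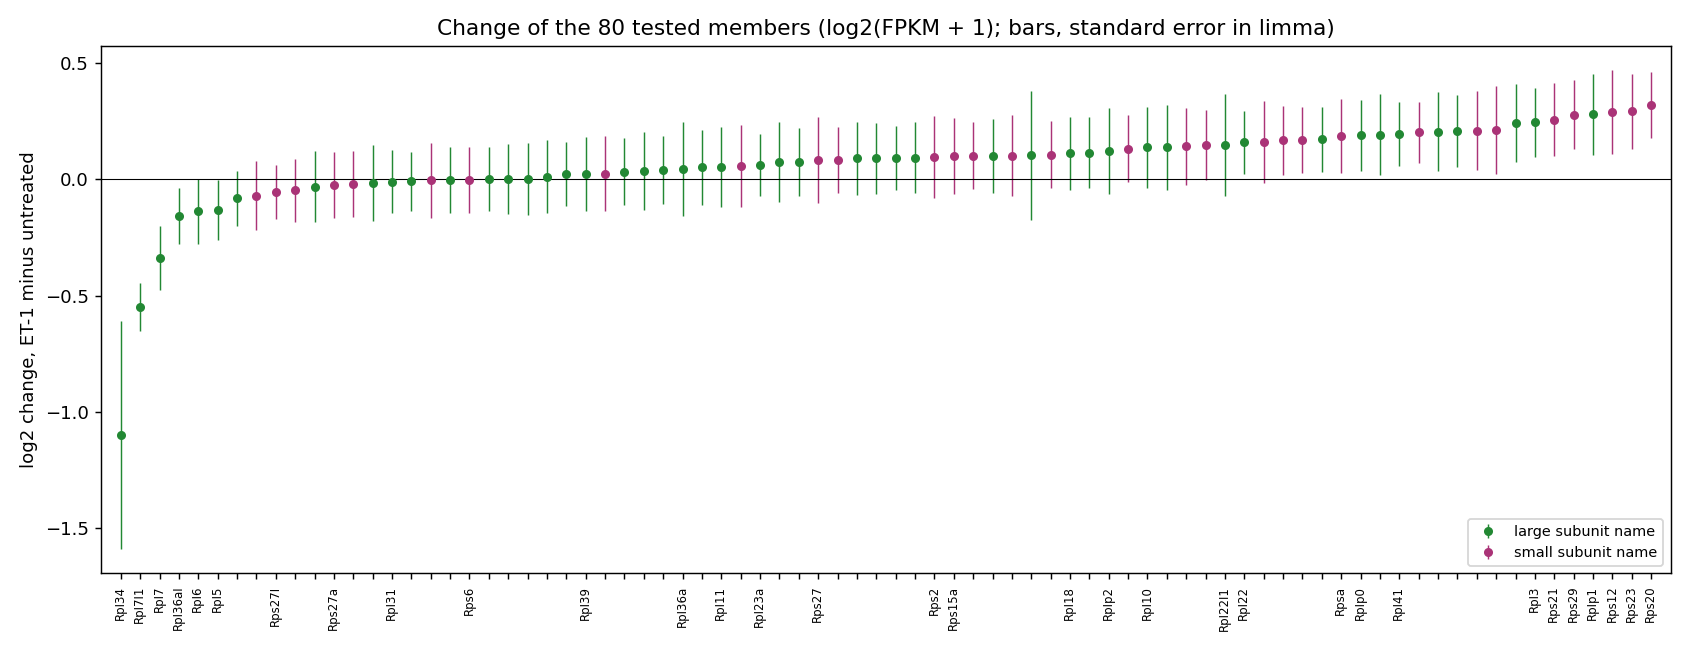
Log2 change of the 80 tested members, ordered, with standard errors from limma, colours by subunit name and names for the members described in the text. Most members lie between 0 and 0.32, with Rpl34, Rpl7l1 and Rpl7 below the rest at -1.10, -0.55 and -0.34.

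The stalk proteins Rplp0, Rplp1 and Rplp2, on which elongation factors dock, had positive log2 changes over all libraries, that of Rplp2 turning negative without ET-1 library 1 and with quantile normalization. Rplp1 had 0.28 ± 0.17 (SE; limma adjusted p = 0.371), Rplp0 0.19 ± 0.15 (0.492) and Rplp2 0.12 ± 0.18 (0.717; n = 3 each). Without ET-1 library 1 the log2 changes were 0.13 for Rplp1, 0.076 for Rplp0 and -0.057 for Rplp2, and with quantile normalization 0.047, 0.051 and -0.011. Rplp0 was at 1558, 1311 and 1512 FPKM untreated and at 1946, 1473 and 1601 FPKM after ET-1, so its groups overlap. Rpl5 and Rpl11 carry the small ribosomal RNA into the large subunit and, when free, bind the p53 regulator Mdm2. Rpl5 was at 403.4, 361.5 and 394.3 FPKM untreated and at 404.9, 305.1 and 354.1 FPKM after ET-1, and Rpl11 at 1281, 1177 and 1359 FPKM untreated and at 1654, 1127 and 1230 FPKM after ET-1. The groups of both overlap. Rpl6 was at 887.0 ± 95.9 and 806.1 ± 87.9 FPKM (SD, n = 3 each) and also overlapped.

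Rps6, the protein that S6 kinases phosphorylate downstream of mTOR and ERK signalling, was at 736.8, 673.1 and 751.8 FPKM untreated and at 843.1, 618.2 and 712.9 FPKM after ET-1. Its ET-1 libraries lay on both sides of the untreated range. The log2 change was -0.0016, with a 95% confidence interval from -0.34 to 0.34 (limma, n = 3 each), which speaks of its mRNA and not of its phosphorylation. Rpsa, a small-subunit protein also known as a laminin receptor, was at 972.7, 915.8 and 987.8 FPKM untreated and at 1355, 942.0 and 1018 FPKM after ET-1. Rps27a, which is made as a fusion with ubiquitin, was at 836.0 ± 46.8 and 828.2 ± 132.6 FPKM (SD, n = 3 each). The groups of Rpsa and of Rps27a overlap.

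The paralogs split into expressed and barely detected genes. Rpl10l, a retrogene that stands in for the X-linked Rpl10 in mouse spermatocytes, was at 0 to 0.10 FPKM untreated and 0.10 to 0.49 FPKM after ET-1, while Rpl10 was at 1014 to 1313 and 1135 to 1565 FPKM. Rpl39l, which is enriched in testis, was at 0.21 to 0.55 FPKM across all libraries, against 689.5 to 996.9 FPKM for Rpl39. Rpl3l, the form of skeletal and heart muscle, was at 0 to 0.21 FPKM, against 574.8 to 860.9 FPKM for Rpl3. Rpl32l was at 0 to 0.25 FPKM. These 4 were below the level needed for the test.

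The other paralogs were expressed beside their parent genes. Rpl22l1, whose level rises in mice that lack Rpl22, was at 136.8, 113.2 and 172.2 FPKM untreated and at 198.2, 120.6 and 152.0 FPKM after ET-1. Its level per length was close to that of Rpl22, Rpl22l1 being 45.4% to 54.5% of the pair's FPKM across the libraries. Rps27l, a p53 target, was at 302.8, 297.2 and 296.3 FPKM untreated and at 331.4, 276.8 and 259.9 FPKM after ET-1. Rpl36al, a retrogene of Rpl36a, was at 354.3, 299.6 and 364.5 FPKM untreated and at 333.9, 294.7 and 282.6 FPKM after ET-1. Its share of the pair with Rpl36a was 35.0% to 36.7% untreated and 28.1% to 36.4% after ET-1. In Rpl22l1, Rps27l and Rpl36al the groups overlap, and no limma adjusted p was below 0.468.

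Each library was also scaled to the same median member, a setting chosen after the data were seen and built from the members themselves. The scaling set the median level of the members equal, not their median change. The members' median log2 change was still 0.086, with 58 positive and 22 negative, against 0.091 in the main fit. Counts by direction on this scale therefore still hold a shared shift. No member passed limma on this scale (11 members had an unadjusted p under 0.05, 13.8%, against 13.6% of all tested genes, and 250 of all tested genes passed the adjusted threshold, 2.14%, with 0.866% higher and 1.28% lower). The groups did not overlap in 36 members (45.0%, against 20.7% of all tested genes), 32 higher and 4 lower, the latter being Rpl7, Rpl7l1, Rpl34 and Rpl36al. Over all genes 9.59% were higher and 11.1% lower without overlap, but the scaling removes spread from the members in particular, so the shares are not read against each other. Rpl7 relative to the median member was at 0.121, 0.182 and 0.176 on the log2 scale untreated and at -0.334, -0.266 and 0.049 after ET-1. Rplp1 was at 1.62, 1.73 and 1.69 untreated and at 2.002, 1.95 and 1.91 after ET-1. Rps23 was at 0.40, 0.53 and 0.43 untreated and at 0.80, 0.67 and 0.75 after ET-1. On this scale Rpl7 was lower and Rplp1 and Rps23 were higher in every ET-1 library than in any untreated library. They were among the 36 members without overlap, and none of them passed limma (adjusted p = 0.224, 0.129 and 0.178). A positive change was the usual case on this scale, with 58 of the 80 members.

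The genes that act with ribosomal proteins did not form a common change. Of 20 genes encoding other translation proteins with TOP mRNAs, none passed limma in either direction (smallest unadjusted p = 0.0720, Eif4a2), and the median log2 change was -0.0034. Eef1a1, the elongation factor that brings aminoacyl-tRNA to the ribosome, was at 3312, 2542 and 3147 FPKM untreated and at 3146, 2689 and 3175 FPKM after ET-1. Rack1, a scaffold on the small subunit, was at 873.4 ± 88.0 and 900.7 ± 111.8 FPKM, and Fau, which encodes the small-subunit protein of a ubiquitin-like fusion, at 982.9 ± 39.2 and 1013 ± 144 FPKM (SD, n = 3 each).

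Of 77 tested mitochondrial ribosomal protein genes, none rose and 1 fell, with a median log2 change of -0.11 and 51 lower against 26 higher by sign. At an unadjusted limma p under 0.05 there were 15 of the 77, 14 of them lower, while the share over all tested genes was 24.1%. Mrps18b fell from 72.2 ± 4.0 to 49.1 ± 3.8 FPKM (SD, n = 3 each; limma adjusted p = 0.0397). In the main fit the cytosolic and the mitochondrial lists thus had medians of opposite sign, and the difference between them was not tested. The cytosolic median was itself negative without ET-1 library 1 (-0.057) and with quantile normalization (-0.014). The mitochondrial median is given for the main fit only. Of 25 regulators of ribosomal protein synthesis, none rose and 1 fell at the adjusted threshold, against 3.46% of all tested genes. In the blocked fit 2 fell and none rose, against 9.45% of all tested genes. At an unadjusted limma p under 0.05 there were 8 of the 25, 3 higher and 5 lower, against 24.1% of all tested genes. Grwd1, a chaperone in ribosome assembly that binds Rpl3, fell from 26.7 ± 1.7 to 14.6 ± 3.0 FPKM (SD, n = 3 each; limma adjusted p = 0.0402). Larp1, the protein that binds TOP mRNAs, was at 46.3, 48.3 and 47.0 FPKM untreated and at 34.6, 35.4 and 36.7 FPKM after ET-1. Its groups do not overlap, and it lay just above the threshold (log2 change -0.40 ± 0.08, SE; limma adjusted p = 0.0508, and 0.04997 with the replicate number as a block). Mtor was at 7.15 ± 0.66 and 6.93 ± 0.98 FPKM (SD, n = 3 each). Rps6ka1, a kinase that ERK activates and that phosphorylates Rps6, was at 2.98, 4.61 and 3.45 FPKM untreated and at 6.98, 6.02 and 5.16 FPKM after ET-1 (limma adjusted p = 0.0977). Of 13 genes of ribosome quality control, the ubiquitin pool and p53, none passed limma, and 5 had an unadjusted p under 0.05, 2 higher and 3 lower. Gtpbp2, a factor for stalled ribosomes, had the smallest p at 12.8 ± 1.1 and 18.2 ± 0.9 FPKM (SD, n = 3 each; limma adjusted p = 0.0583, or 0.0416 in the blocked fit).

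Of the 84 members, 72 had in the authors' deposited table a q-value under 0.05, 61 higher and 11 lower in ET-1 cells, among 16812 genes of which 66.1% had such a q-value. In the authors' deposited table the log2 values of members with that q-value include 0.34 for Rps20 and -0.33 for Rpl7, genes that did not pass limma on the same FPKM values. The sources used here do not say how the authors' comparison treated the spread between libraries.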

How the data were processed

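The analysis used 1 table covering 3 untreated and 3 ET-1 libraries of total RNA, sequenced by BGI's protocol per the labels. HISAT2 2.0.4, Bowtie2 2.2.5, RSEM 1.2.12 and the build mm10 are named, per the submitters' processing notes, with no role for each. The authors deposited FPKM per library, mean FPKM, a log2 fold change, and a p-value and q-value (DEGseq, per the file headers). Also deposited was the longest transcript length. Of 22135 rows, 19285 had values in 6 libraries, and 27 symbols stored as dates were restored from RefSeq identifiers. Depth was estimated from how well low FPKM values of single-transcript genes (length 300 to 1200 bases) fell on multiples of 1 fragment (84.3% to 88.7% within 0.15). RSEM values need not be whole, so no count test was run.

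A gene was tested if at least 3 libraries reached 1 FPKM. The test was limma (3.58.1, R 4.3.3) on log2(FPKM + 1), two-sided, with group as its term, a mean-variance trend in the empirical Bayes step and Benjamini-Hochberg adjustment over 11664 genes at 0.05. The scale understates changes of low genes. The step was checked on simulated data. An exact permutation test of 3 against 3 cannot go below 0.1, so none is given. Same-numbered libraries deviated from their group means with correlations of 0.228, 0.523 and 0.202. These exceed 0.1, so a fit with the number as a block was added. The crossed pairs untreated 1 with ET-1 3 (0.249) and untreated 3 with ET-1 1 (0.271) were as high, so numbers 1 and 3 pair no better than crossed, and over the members alone the same-numbered values were -0.053, 0.015 and 0.096. The labels do not say what the number stands for. The members and lists were chosen with earlier results of these data known. Named members were those past the threshold, the 6 largest changes in each direction, the 5 highest and lowest levels, the paralogs with their parent genes, and members of known role. Further names, and Tagln, Eef1a1, Rack1, Fau, Larp1, Mtor and Rps6ka1, were picked with their values in view. The alternatives were other pseudocounts, no filter, other scalings, removal of the length trend, the block and leaving out each library. Another averaged untreated libraries 1 and 3, the most alike pair within a group. Scaling to the median member and summing copies were chosen after seeing the data. Some members are counted but not reported by name here.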

Additional observations from a re-analysis of the deposited data

How the results depend on the processing

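The count of tested genes past limma was 404. It was 81 without a filter, 1102 with the replicate block, 9 with the FPKM of untreated libraries 1 and 3 averaged as 1 library and 250 with libraries scaled to the median member, and it ran from 0 (without untreated library 3) to 797 (without ET-1 library 3) when 1 library was left out. The count of members that passed was 1 in the main analysis and 1 with a pseudocount of 0.1 or 5, equal medians, trimmed mean scaling, the length trend removed and the replicate block, which changed no call of a member. It was 0 without a filter, with quantile normalization, with untreated libraries 1 and 3 averaged and with median-member scaling, and 0 to 1 when 1 library was left out. Rpl7l1 was the member concerned in each case. The members' median log2 change ran from -0.057 (without ET-1 library 1) to 0.186 (without ET-1 library 2), and was 0.093 over core members and 0.091 without the 7 members placed off the RefSeq gene. Of 497 values of 31 named members under the alternatives, 488 kept their side of the threshold, 9, all of Rpl7l1, lost it, and none that passed changed sign. Among values that never passed, 41 changed sign. The ET-1 minus untreated difference in the members' share of summed FPKM was 0.732 percentage points, and 0.812 without the 10 highest genes; with 1 library left out, an alternative chosen after seeing the data, it ran from -0.295 (without ET-1 library 1) to 1.52 (without ET-1 library 2). The causes were not tested. With 3 libraries a group, a change of the size of most members lies within the spread between libraries.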

Other observations

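Rps27rt, the retrocopy row that spans the deposited locus of Rps27, was listed at 13.2 FPKM in untreated library 3 and at 13.3 FPKM in ET-1 library 3, and at 0 in the other 4 libraries. Rpl37rt, a copy of Rpl37, was at 91.2, 80.9 and 68.5 FPKM in untreated libraries 1, 2 and 3 and at 145.3, 81.1 and 84.1 FPKM in ET-1 libraries 1, 2 and 3, which is 15.4% to 25.1% of the summed FPKM of the pair. Rps3a1, the small-subunit gene outside the naming rule, was at 1021, 922.5 and 1020 FPKM untreated and at 1108, 832.0 and 949.9 FPKM after ET-1, with the highest value in ET-1 library 1.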
